A study of Homo sapiens with 30 samples.

Results

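Interleukin 1 beta (IL-1β) is a cytokine of early inflammation. Here it was added directly to hCMEC/D3, an immortalised human line derived from brain capillary endothelium that serves as a model of the blood-brain barrier. Of 30 RNA sequencing libraries in 10 groups of 3, the 3 libraries of cells kept for 12 h with IL-1β at 10 ng/mL (IL1b) were set against the 3 of cells kept as long in serum-free medium (Control). The libraries were taken by their names in the deposited count table, and a filter on low counts left 15908 of its 63138 genes. Cells given tumour necrosis factor at 25 ng/mL (TNF) or C5a, an anaphylatoxin cut from complement, at 50 ng/mL (C5a) for 12 h were used to show where the response to IL-1β differs from that to another stimulus. Cells given epinephrine at 200 nM for 12 h (Epinephrine) entered the fit for its estimate of spread and are shown in 2 plots. All of these groups are the same cell line with the same batch number, and the labels do not say whether replicates are separate cultures. The p-values therefore measure the spread between libraries, which may be technical.

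IL-1β acts through the receptor IL1R1, which pairs with the co-receptor IL1RAP and recruits MYD88 and the kinases of the IRAK family. TRAF6 and the kinase TAK1 (MAP3K7) pass the signal on to the IκB kinases, which free NF-κB, and to the p38 and JNK kinases, which act on AP-1 factors and on the stability of short-lived mRNAs. In endothelium this pathway is known for inducing adhesion molecules, chemokines and prostaglandin synthesis, and in brain vessels for a part in fever and in the recruitment of neutrophils.

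The 6 libraries held 17274481 to 19922547 counts, and in each 14654 to 15060 genes had at least 10 counts. Levels are given as CPM, read counts normalised to the library total with scaling by the trimmed mean of M-values, in the order of libraries 1, 2 and 3 of a group. Changes are log2 fold changes with their SE (1 on this scale is 2-fold), and adjusted p-values come from the quasi-likelihood test of edgeR, adjusted by Benjamini and Hochberg's method over all genes tested, with a threshold of 0.05. Of the 14 endothelial markers 13 passed the filter, EMCN being the exception, and together they came to 1276 to 1328 CPM in Control and 982.5 to 1017 CPM in IL1b. Of these, 10 fell in IL1b cells and 0 rose, among them MMRN2 (-0.96), ESAM (-0.90) and ROBO4 (-0.67) on the log2 scale. Over all genes tested 22.6% fell and 24.0% rose. Among the 10, the calls of VWF (-0.16) and KDR (-0.42) were lost in 7 and 3 of the alternative fits. In bulk RNA, fewer cells of a type and less RNA per cell cannot be told apart. Leukocyte markers summed to at most 2.08 CPM, astrocyte markers to at most 4.37 CPM with AQP4 at 0, neuronal markers to at most 4.12 CPM and epithelial markers to at most 0.263 CPM. Pericyte markers came to 365 to 419 CPM in Control and 325 to 344 CPM in IL1b, most of it CSPG4, with KCNJ8 at 0. Fibroblast markers came to 258 to 288 CPM and 195 to 199 CPM, most of it COL1A1 and COL1A2. Of the 4 pericyte markers tested 3 fell, of the 3 fibroblast markers 1 fell and 1 rose, and both neuronal markers tested fell. Smooth muscle markers came to 21.9 to 25.8 CPM in Control and 26.02 to 28.6 CPM in IL1b, and 1 of the 4 rose. The part of other cells in the results was not tested.

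IL-1β changed 46.6% of the genes tested, 24.0% higher and 22.6% lower, so the calls in a group of genes have to be read beside these shares. Large changes were rare. A rise of more than 1 on the log2 scale passed the test for 480 genes (3.02%) and a fall of that size for 638 (4.01%), and beyond 2 there were 106 rises (0.666%) and 111 falls (0.698%). The median log2 fold change of all genes was -0.01. Of the called genes 51.5% were higher, against 38.6% when libraries were scaled by their total counts, where the median was -0.09. The 3 IL1b libraries lay wholly above or below the 3 Control libraries for 56.3% of genes.

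**Figure D1:**
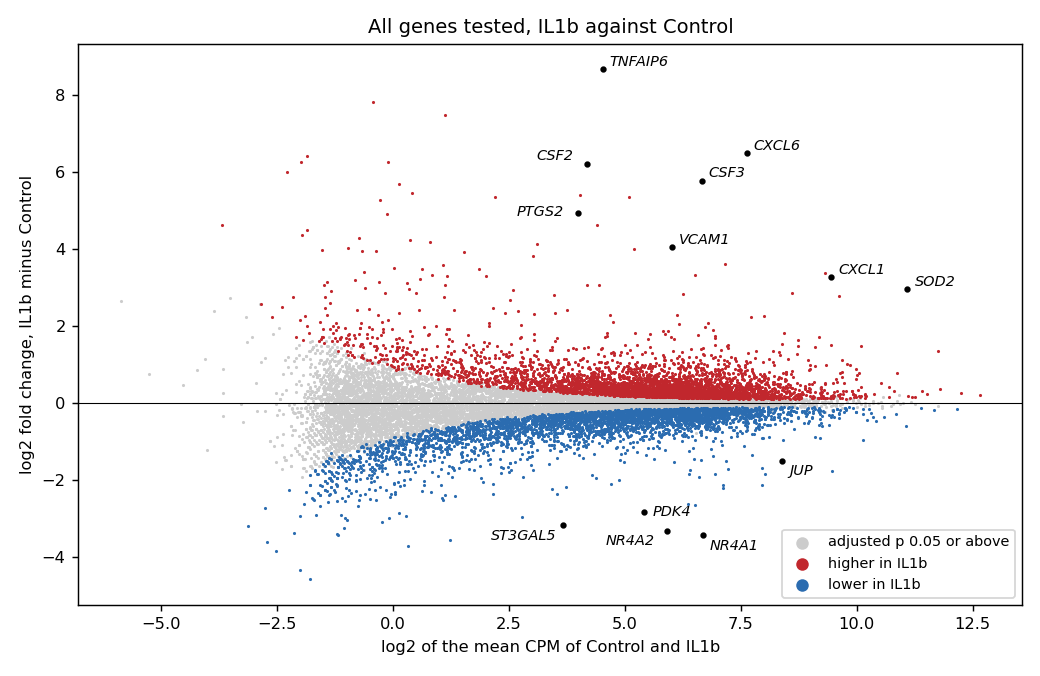
Each point is 1 of the 15908 genes tested, with the log2 of its mean CPM in Control and IL1b on the x axis and its log2 fold change (IL1b minus Control) on the y axis. Red and blue mark genes higher and lower at an adjusted p under 0.05 and grey the rest; the named chemokine, colony-stimulating factor and acute-phase genes stand above the cloud and NR4A1, NR4A2, ST3GAL5 and PDK4 below it.

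The components that receive the IL-1 signal were themselves changed, mostly by small amounts. Of 24 receptors and proximal signalling genes tested, 13 rose and 4 fell, with a median log2 fold change of 0.15 beside -0.01 for all genes. With libraries scaled by their totals 8 rose and 5 fell. The receptor IL1R1 stood at 17.7, 19.9 and 21.6 CPM in Control and 34.1, 35.2 and 33.9 CPM in IL1b. Its co-receptor IL1RAP stood at 38.8, 31.9 and 36.1 and 53.1, 54.5 and 52.6 CPM. For both receptor chains every IL1b library lay above every Control library, with log2 fold changes of 0.80 (SE 0.086) and 0.58 (SE 0.071). SIGIRR, an inhibitory member of the receptor family, went the other way, from 25.3, 22.9 and 22.5 CPM to 13.4, 11.7 and 13.2 CPM (-0.89, SE 0.11). IL1R2, the decoy receptor, had too few counts to be tested.

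IRAK2, a kinase-like protein that carries the signal to TRAF6, stood at 16.9, 15.1 and 17.5 CPM in Control and 60.5, 56.4 and 56.6 CPM in IL1b, with no overlap, a log2 fold change of 1.81 (SE 0.082). IRAK3, which restrains the pathway, rose by 1.11 (SE 0.06), from 40.5, 41.0 and 39.3 to 85.4, 85.5 and 90.1 CPM. The adaptor MYD88 rose by 0.75 (SE 0.057), and TOLLIP, a negative regulator, fell by 0.31 (SE 0.064) on that scale. MAP2K6, an activator of p38, was low throughout, at 2.34, 1.99 and 2.15 CPM in Control and 0.304, 0.261 and 0.263 CPM in IL1b (-2.94, SE 0.50). Adjusted p for these 7 genes, IL1R1, IL1RAP, SIGIRR, IRAK2, IRAK3, MYD88 and MAP2K6, ran from 1.50e-19 to 1.20e-06 (edgeR). The central kinases of the relay moved little. IRAK1 (0.11), TRAF6 (0.27), MAP3K7 (0.15) and IKBKB (0.15) passed the test, but each lost its call under total-count scaling (adjusted p from 0.0767 to 0.543, edgeR). These calls were also lost without single libraries, that of TRAF6 without IL1b replicate 1 (0.0738), that of IKBKB without IL1b replicate 2 (0.103) or Control replicate 2 (0.0556), that of MAP3K7 without IL1b replicates 1 or 2 or Control replicate 2 (up to 0.0907) and that of IRAK1 without IL1b replicates 2 or 3 or Control replicates 2 or 3 (up to 0.0900). IRAK4 (-0.19), TAB1 (0.05), MAPK14 (0.09) and IKBKG (-0.02) did not pass.

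In the NF-κB system most feedback regulators and several subunits rose. Of 21 subunits and feedback inhibitors, 15 rose and 0 fell, with a median of 0.80, and 7 rose by more than 1. The largest rise at a well-measured level was that of TRAF1, an adaptor of receptors of the TNF family, from 8.89, 9.15 and 8.21 CPM in Control to 42.9, 41.0 and 44.6 CPM in IL1b (2.29, SE 0.08). BIRC3, a ubiquitin ligase of the same complexes, went from 29.1, 26.0 and 28.3 to 117, 118 and 111 CPM (2.05, SE 0.10). TNIP1, which binds A20, went from 161, 149 and 147 to 535, 533 and 530.3 CPM (1.81, SE 0.043). In all 3 the groups were far apart. TNFAIP3, which encodes A20 itself, an enzyme that switches NF-κB signalling off, rose from 66.3, 53.0 and 71.8 to 192, 175 and 176 CPM (1.51, SE 0.19). The precursor subunits NFKB1 (0.82) and NFKB2 (0.80) and RELB (1.04) rose too, whereas RELA at 0.15 lost its call under total-count scaling and REL at 0.07 did not pass. Adjusted p for TRAF1, BIRC3, TNIP1, TNFAIP3, NFKB1, NFKB2 and RELB ran from 1.59e-27 to 7.22e-05 (edgeR).

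The IκB family, which holds NF-κB in the cytoplasm or tunes it in the nucleus, was mixed at 12 h. NFKBIA, which encodes IκBα, stood at 296, 279 and 329 CPM in Control and 278, 267 and 263 CPM in IL1b and did not pass (-0.16, SE 0.11). NFKBIZ, an inducible nuclear member, stood at 215, 161 and 203 CPM in Control and 154, 158 and 158 CPM in IL1b, a log2 fold change of -0.30 (edgeR adjusted p 0.142). Its IL1b libraries lay just under the lowest Control library. NFKBIE (0.27) also missed the threshold, though it passed in 5 of the alternative fits, and NFKBIB rose by 0.47. BCL3, a nuclear IκB that partners p50 and p52 dimers, rose from 27.8, 29.2 and 24.6 to 51.8, 49.4 and 50.7 CPM (0.90, SE 0.073). TNIP3 was rare, with 5 counts in the 3 Control libraries together and 85 in the 3 IL1b libraries, a ratio of 16.6 with a 95% counting interval of 6.84 to 52.4. Such intervals cover counting error only.

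Neutrophil-attracting chemokines of the CXC family, which act on CXCR1 and CXCR2, had the largest median change of any list. Of the 6 that were tested 5 rose, all past 2 on the log2 scale, and the median was 3.32; PPBP was not tested. The 6 genes lie together on chromosome 4, and the stretch just upstream of each holds the letters GGNNTTTCC, a form of the κB motif, on 1 of the strands. They are shown because the genes differ in their response while sharing this element. The 100 bases are those from 120 to 21 bases before the RefSeq transcription start (GRCh38.p14), in the direction of the gene, with the motif in capitals.
CXCL1: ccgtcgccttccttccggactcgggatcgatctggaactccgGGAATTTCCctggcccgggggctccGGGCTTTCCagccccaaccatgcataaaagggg
CXCL2: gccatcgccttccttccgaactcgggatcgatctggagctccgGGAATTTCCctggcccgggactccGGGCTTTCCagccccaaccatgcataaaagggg
CXCL3: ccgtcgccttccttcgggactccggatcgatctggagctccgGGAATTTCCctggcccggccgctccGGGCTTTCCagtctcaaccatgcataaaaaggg
CXCL5: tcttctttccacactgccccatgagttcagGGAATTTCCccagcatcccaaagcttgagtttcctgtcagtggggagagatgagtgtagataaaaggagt
CXCL6: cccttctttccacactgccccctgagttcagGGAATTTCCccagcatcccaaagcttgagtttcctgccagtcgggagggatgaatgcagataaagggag
CXCL8: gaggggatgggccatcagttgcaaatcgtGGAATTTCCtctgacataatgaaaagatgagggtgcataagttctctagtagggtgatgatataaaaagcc
These windows lie at chr4:73869273-73869372 (plus strand), chr4:74099216-74099315 (minus), chr4:74038710-74038809 (minus), chr4:73998698-73998797 (minus), chr4:73836558-73836657 (plus) and chr4:73740449-73740548 (plus). CXCL1, CXCL2 and CXCL3 held 2 matches each, the nearer one 53 bases before the start. CXCL5, CXCL6 and CXCL8 held 1, at 90, 89 and 91 bases. In the RefSeq windows of 250 bases before to 50 after a start, searched on both strands, the motif occurred in 6.26% of all 35116 windows and in 6.77% of the 16185 windows of genes tested. Counted by gene, it occurred for 14 of the 19 NF-κB genes with a window and for 9.08% of genes tested, and counted by window for 17 of the 33 windows of the NF-κB list. That list holds feedback genes of NF-κB, so a high share there is partly built in. The motif was as frequent among the largest falls (4 of 14 genes) as among the largest rises (3 of 10). Acute-phase genes (1 of 11) and prostaglandin and nitric oxide genes (0 of 12) held it no more often than genes tested. Between lay mononuclear-cell chemokines (3 of 5), adhesion molecules (4 of 10), cytokines and growth factors (5 of 16) and JAK-STAT and interferon genes (6 of 26). A match describes the letters and is not evidence of binding.

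CXCL1 stood at 127, 120.5 and 144 CPM in Control and 1277, 1249 and 1247 CPM in IL1b. The neighbouring CXCL3, whose upstream stretch is nearly the same, stood at 4.83, 3.14 and 4.85 and 24.9, 20.8 and 22.9 CPM. Both groups were well separated in both genes, with log2 fold changes of 3.27 (SE 0.10) for CXCL1 and 2.42 (SE 0.24) for CXCL3. CXCL2, the third of this trio, stood at 119, 85.4 and 129 CPM in Control and 121, 119 and 119.8 CPM in IL1b. Its IL1b values fell inside the range of the Control values, and its log2 fold change was 0.11 (SE 0.21, edgeR adjusted p 0.692). The Control libraries of CXCL2 were not low, and the C5a libraries, at 20.7, 19.4 and 16.7 CPM, lay below them. Members of this trio are close paralogs, so reads that fit more than 1 of them could be lost or shared.

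The 2 members with the largest rises, CXCL6 and CXCL5, had been low in Control. CXCL5 (ENSG00000163735, chr4:73995642-73998779) went from 1.92, 1.20 and 1.76 CPM to 72.1, 66.5 and 60.1 CPM, a log2 fold change of 5.34 (SE 0.17). CXCL6 (ENSG00000124875, chr4:73836497-73849064) rose by 6.49 (SE 0.11), from 4.05, 4.44 and 4.57 to 407, 387 and 378 CPM. CXCL8, which encodes interleukin 8, rose by 3.37 (SE 0.18), from 106, 83.9 and 146 to 1190.0, 1156 and 1123 CPM. Adjusted p for CXCL1, CXCL3, CXCL5, CXCL6 and CXCL8 ran from 4.27e-34 to 7.47e-07 (edgeR). In the plot of levels by library all 3 IL1b points of these 5 genes sit above all 3 Control points.

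**Figure D2:**
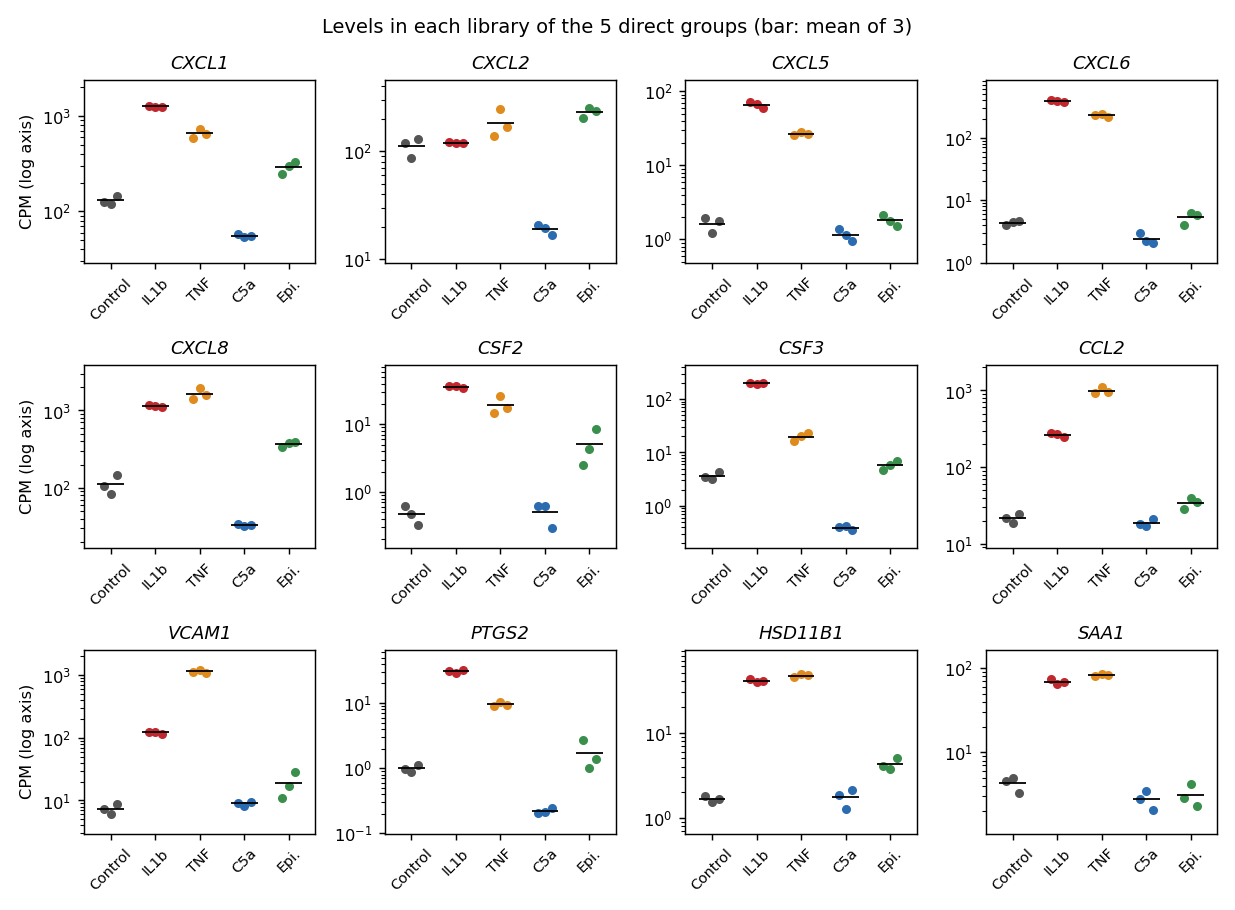
CPM on a log axis in each of the 15 directly stimulated libraries for 12 genes that rank among the largest rises or belong to the CXC family, with a bar at the mean of the 3 libraries of a group (Epi. is Epinephrine). CXCL2 is the only panel in which the IL1b points lie within the Control range, and CSF3, CXCL1, CXCL5, CXCL6, CSF2 and PTGS2 are those in which IL1b exceeds TNF.

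Chemokines for monocytes and lymphocytes rose as well, from lower levels. Of 9 tested 8 rose and 0 fell, with a median of 2.67, and 5 further genes of the list had too few counts. CCL2 (ENSG00000108691, chr17:34255218-34257203), the main attractant of monocytes, went from 21.9, 18.4 and 24.5 CPM to 277, 266 and 250.4 CPM (3.61, SE 0.13). CX3CL1 (ENSG00000006210, chr16:57372458-57385048), or fractalkine, which is bound to the cell surface, went from 0.520, 1.25 and 0.992 to 17.9, 15.7 and 15.1 CPM (4.13, SE 0.25). CCL20, the ligand of CCR6, went from 1.14, 1.46 and 2.09 to 10.4, 9.23 and 10.2 CPM (2.67, SE 0.21). The groups did not overlap in any of these. CCL7 had 1 count in the Control libraries together and 252 in the IL1b libraries, a ratio of 246 with a 95% counting interval of 43.8 to 9750. CXCL10, an interferon-inducible ligand of CXCR3, rose by 3.49 (SE 0.50) to 7.96, 5.32 and 6.63 CPM, and CCL5 by only 0.65 (SE 0.10). CXCL12, which is made constitutively by brain endothelium, rose by 0.61 (SE 0.052), from 74.8, 68.7 and 72.6 to 114, 107 and 109 CPM. Adjusted p for CCL2, CX3CL1, CCL20, CXCL10, CCL5 and CXCL12 ran from 9.46e-19 to 4.10e-06 (edgeR). CXCL10 overlaps ART3, which lies on the opposite strand, and strand use in the counting is not given in the sources used here.

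Leukocyte adhesion molecules moved in both directions. Of 13 tested 4 rose and 4 fell (30.8% each), beside 24.0% and 22.6% of all genes tested, with a median of -0.06. VCAM1 (ENSG00000162692, chr1:100719742-100739045), which binds the leukocyte integrin α4β1, went from 7.22, 6.17 and 8.82 CPM to 125, 126 and 114 CPM (4.04, SE 0.29). ICAM1 went from 144, 137 and 134 to 311, 309 and 314 CPM (1.17, SE 0.12). The groups were apart in both, and CD47, the ligand of SIRPα, rose by 0.74 (SE 0.051). SELE, or E-selectin, had 10 counts in the Control libraries together and 193 in the IL1b libraries, a ratio of 18.8 with a 95% counting interval of 10.0 to 39.9. ICAM2 (-0.61), CD34 (-0.62), MCAM (-0.37) and F11R (-0.34) fell. ALCAM (-0.06), NECTIN2 (0.01), JAM3 (-0.22), ICAM5 (0.46) and MADCAM1 (-0.44) did not pass. ICAM2, for example, went from 20.6, 15.9 and 20.5 to 12.8, 11.9 and 12.6 CPM. Adjusted p for VCAM1, ICAM1, CD47, ICAM2, CD34, MCAM and F11R ran from 1.94e-14 to 9.43e-05 (edgeR).

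Of 27 cytokines and growth factors tested 16 rose, 11 of them by more than 1, and 3 fell, with a median of 0.98. Colony-stimulating factors, which drive the production and survival of myeloid cells, led it. CSF2 (ENSG00000164400, chr5:132073790-132076170) went from 0.624, 0.470 and 0.331 CPM to 37.0, 37.1 and 34.1 CPM. CSF3 (ENSG00000108342, chr17:40015361-40017813), the granulocyte factor, went from 3.53, 3.14 and 4.24 to 198, 194 and 200.4 CPM. CSF1 went from 121, 117 and 112 to 231, 225 and 238 CPM. All 3 were higher in every IL1b library, by 6.22 (SE 0.77), 5.76 (SE 0.13) and 0.98 (SE 0.056). The gene of the stimulus itself was induced, IL1B going from 20.4, 14.3 and 22.4 to 139, 130.4 and 133 CPM (2.82, SE 0.16). IL1A, the other agonist of the receptor, went from 4.05, 2.61 and 4.46 to 13.4, 12.6 and 12.6 CPM (1.79, SE 0.19). The receptor antagonist IL1RN stood at no more than 0.210 CPM in any of the 6 libraries. IL6 (2.07), TSLP (2.03) and IL32 (1.28) rose, as did the vascular growth factors VEGFC (1.73), FGF2 (1.06) and VEGFA (0.98). HBEGF (-1.12) and AREG (-1.03), ligands of the EGF receptor, and the stress hormone GDF15 (-0.91) fell. HBEGF went from 68.4, 69.4 and 76.2 to 33.5, 33.6 and 31.2 CPM. Adjusted p for CSF1, CSF2, CSF3, IL1B, IL1A, IL6, TSLP, IL32, VEGFC, FGF2, VEGFA, HBEGF, AREG and GDF15 ran from 3.81e-29 to 7.92e-07 (edgeR).

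Of 18 acute-phase, complement and secreted host-defence genes tested 13 rose and 0 fell, with a median of 1.78. TNFAIP6 (ENSG00000123610, chr2:151357592-151380048), which encodes a hyaluronan-binding protein, was the largest rise of all, and its size is poorly fixed from below. All 6 of its Control counts were in library 1, against 2649 counts in the IL1b libraries, a ratio of 431 with a 95% counting interval of 198 to 1180. SAA1 (ENSG00000173432, chr11:18266174-18269977), a serum amyloid A protein, went from 4.62, 4.97 and 3.25 CPM to 74.2, 65.9 and 68.2 CPM (4.01, SE 0.14). SAA2 (ENSG00000134339, chr11:18239223-18248643) went from 0.935, 0.261 and 1.05 to 32.5, 31.6 and 31.6 CPM (5.41, SE 0.29). These 2 genes are close paralogs, so the share of each is uncertain, but both groups were far apart in both. Complement C3, the central component of that cascade, went from 98.1, 98.8 and 89.4 to 699.6, 679 and 686 CPM (2.85, SE 0.046). CFB, a protease of the alternative pathway, went from 10.4, 8.16 and 11.52 to 42.3, 41.6 and 46.1 CPM (2.11, SE 0.12), and C1R (1.10) and C1S (0.80) rose less. PTX3, a soluble pattern receptor, reached 1358, 1355 and 1390.0 CPM (2.79, SE 0.078). SOD2, the mitochondrial superoxide dismutase, went from 490.4, 489 and 517 to 3915, 3855 and 3790.0 CPM (2.95, SE 0.048). The metallothioneins MT1X (2.39) and MT2A (1.45) rose, while the complement regulator CD59 (-0.09) did not pass the test. Adjusted p for SAA1, SAA2, C3, CFB, C1R, C1S, PTX3, SOD2, MT1X and MT2A ran from 1.48e-32 to 4.23e-07 (edgeR).

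Genes that make prostaglandin E2 rose, while the synthases of prostacyclin (PTGIS) and nitric oxide (NOS3) fell. In the list as a whole, 11 of 16 genes rose and 3 fell, with a median of 0.35. PTGS2 (ENSG00000073756, chr1:186671791-186680427), which encodes the inducible cyclooxygenase 2, went from 0.987, 0.889 and 1.10 CPM to 31.0, 29.04 and 31.7 CPM (4.94, SE 0.24). PTGES, the inducible prostaglandin E synthase that acts with it, went from 4.05, 3.87 and 3.58 to 10.2, 9.23 and 9.47 CPM (1.33, SE 0.17). PLA2G4A, which releases arachidonic acid, went from 0.416, 0.470 and 0.496 to 1.98, 3.39 and 2.10 CPM (2.42, SE 0.43). For each of these the lowest IL1b library lay above the highest Control library. The prostaglandin E2 receptor genes PTGER2 (0.84) and PTGER4 (0.39) and the transporters SLCO2A1 (0.35) and ABCC4 (0.36) rose as well. The constitutive cyclooxygenase PTGS1 fell from 18.4, 17.7 and 19.6 to 9.73, 9.75 and 9.21 CPM (-0.96, SE 0.12), and the prostacyclin synthase PTGIS fell from 9.40, 8.57 and 7.99 to 5.47, 5.79 and 5.63 CPM (-0.62, SE 0.15). NOS3, the endothelial nitric oxide synthase, was barely expressed, with 37 counts in the Control libraries together and 6 in the IL1b libraries, a ratio of 6.32 with a 95% counting interval of 2.64 to 18.3. GCH1, which makes the cofactor of that enzyme, rose from 28.3, 27.4 and 27.4 to 67.5, 69.5 and 67.1 CPM (1.29, SE 0.066). Adjusted p for PTGS2, PTGES, PLA2G4A, PTGER2, PTGER4, SLCO2A1, ABCC4, PTGS1, PTGIS and GCH1 ran from 1.09e-21 to 7.87e-04 (edgeR).

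JAK-STAT and interferon-response genes, the longest list, had 29 rises among 36 tested (80.6%), with 2 falls and a median of 0.75. By share the mononuclear-cell (88.9%) and neutrophil (83.3%) chemokines rose more often, and 24.0% of all genes tested rose. The sizes in the JAK-STAT list were moderate. MX2, an antiviral GTPase, went from 78.7, 69.1 and 73.6 CPM to 345, 365 and 327 CPM (2.23, SE 0.16). GBP4, a guanylate-binding protein, went from 4.78, 5.38 and 6.39 to 18.4, 18.2 and 16.9 CPM (1.70, SE 0.10). SOCS3, the feedback inhibitor of gp130 receptors, went from 57.1, 32.8 and 39.4 to 153, 147 and 141 CPM (1.77, SE 0.19). None of the 3 overlapped between groups. IRF1 (0.82), IRF7 (1.08), IFIT3 (1.36) and OAS2 (1.51) rose too. Several class I genes of antigen presentation stood apart within the list, since HLA-B (0.06), HLA-C (-0.08), HLA-E (0.08) and B2M (0.01) did not pass. TAP1, a subunit of the transporter that supplies peptides for class I molecules, rose by 0.67 (SE 0.05). Adjusted p for MX2, GBP4, SOCS3, IRF1, IRF7, IFIT3, OAS2 and TAP1 ran from 3.03e-16 to 9.11e-04 (edgeR). The HLA genes share sequence with one another, so the split of their counts is uncertain.

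**Figure D3:**
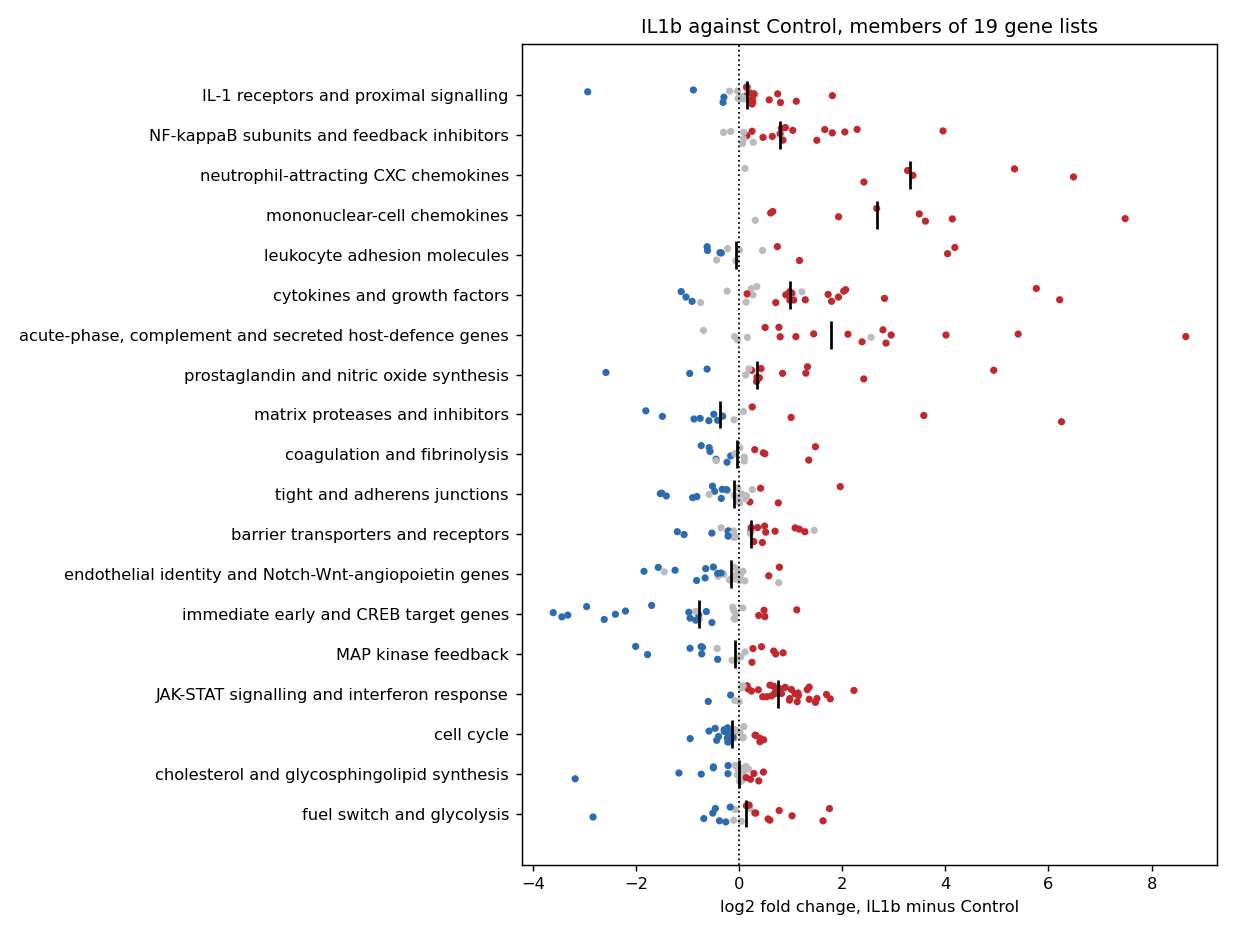
Log2 fold change (IL1b minus Control, x axis) of every tested member of 19 gene lists (y axis), red for members higher and blue for members lower at an adjusted p under 0.05, grey for the rest, with a black bar at the list's median. The 2 chemokine lists and the acute-phase list lie to the right of 0, NF-κB and JAK-STAT genes follow at smaller sizes, and the immediate early list lies to the left.

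Matrix proteases and their inhibitors went both ways. Of 14 genes tested 4 rose and 8 fell, with a median of -0.37, and the number that rose was 2 to 5 over the other settings. The collagenase MMP1 was rare but rose, from 0.312, 0.105 and 0.551 CPM to 2.84, 4.80 and 4.05 CPM (3.58, SE 0.51). Its log2 fold change was 3.16 without Control replicate 2 and 4.18 without Control replicate 3. MMP12, the macrophage elastase, had 1 count in the Control libraries together and 107 in the IL1b libraries, a ratio of 104 with a 95% counting interval of 18.4 to 4160. MMP2, the gelatinase of basement membrane, fell from 44.1, 42.0 and 44.5 to 15.7, 15.7 and 15.2 CPM (-1.49, SE 0.086). MMP11 (-1.81), MMP14 (-0.42), MMP15 (-0.49) and MMP19 (-0.32) fell as well. The inhibitors TIMP2 (-0.87), TIMP4 (-0.75) and TIMP3 (-0.59) fell, and TIMP1 rose by 0.26. TIMP2 went from 724, 717 and 678 to 388, 385 and 383 CPM, with every IL1b library below every Control library. Adjusted p for MMP1, MMP2, MMP11, MMP14, MMP15, MMP19, TIMP1, TIMP2, TIMP3 and TIMP4 ran from 3.77e-18 to 0.00498 (edgeR).

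In coagulation and fibrinolysis 5 of 16 genes rose and 6 fell, with a median of -0.04. TFPI2, a protease inhibitor of the Kunitz type, went from 75.4, 78.6 and 78.7 CPM in Control to 224, 213 and 212 CPM in IL1b (1.48, SE 0.052), with no overlap between the groups, and TFPI rose by 0.50. Anticoagulant and receptor genes were among those that fell, namely thrombomodulin (THBD, -0.45), protein S (PROS1, -0.56) and the thrombin receptor F2R (-0.58). F3, the tissue factor gene that starts coagulation, stood at 11.6, 10.6 and 12.0 CPM and 12.3, 12.5 and 11.8 CPM, with overlapping groups (0.10, edgeR adjusted p 0.485). Adjusted p for TFPI2, TFPI, THBD, PROS1 and F2R ran from 1.10e-22 to 6.86e-07 (edgeR).

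Junction genes mostly fell or did not pass. Of 25 tested 4 rose and 10 fell, with a median of -0.09, and 7 to 14 fell over the other settings. JUP, which encodes plakoglobin of the adherens junction, fell from 517, 509 and 464 CPM to 179, 174 and 173 CPM (-1.5, SE 0.05). CLDN5, the main claudin of brain endothelium, fell from 50.2, 46.3 and 43.5 to 16.3, 14.7 and 17.7 CPM (-1.53, SE 0.091). ESAM, an adhesion molecule of endothelial junctions, fell from 23.6, 23.9 and 24.2 to 12.7, 11.8 and 13.9 CPM, and cingulin (CGN) fell by 0.82 (SE 0.13). In each of these the groups did not overlap. Other claudins rose. CLDN1 went from 44.2, 40.2 and 45.01 to 172, 171 and 161 CPM (1.96, SE 0.061) and CLDN11 from 192, 179.6 and 201 to 324, 329 and 317 CPM (0.76, SE 0.044). The catenins CTNNA1 (-0.01), CTNNB1 (-0.09) and CTNND1 (-0.03) did not pass the test. Adjusted p for JUP, CLDN5, ESAM, CGN, CLDN1 and CLDN11 ran from 6.78e-24 to 1.53e-06 (edgeR).

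Transporters and receptors of the barrier went both ways, 11 of 25 rising and 7 falling, with a median of 0.22. With total-count scaling 10 rose and 9 fell, with a median of 0.14. The transferrin receptor TFRC, which carries iron into brain endothelium, went from 240.2, 239 and 253 CPM to 604, 589 and 579 CPM (1.28, SE 0.045). SLC38A5, a glutamine transporter, went from 31.6, 28.2 and 33.5 to 72.0, 65.3 and 72.2 CPM (1.17, SE 0.067). MFSD2A, the carrier of docosahexaenoic acid that also limits transcytosis, went from 5.77, 6.38 and 7.11 to 14.7, 12.6 and 13.6 CPM (1.09, SE 0.14). All 3 were higher in every IL1b library, and the monocarboxylate carrier SLC16A1 rose by 0.70 (SE 0.046). LRP1, a receptor for amyloid β and lipoproteins, fell from 164, 167 and 153 to 66.4, 70.9 and 73.8 CPM (-1.20, SE 0.11), and the efflux pump ABCG2 fell by 0.53 (SE 0.12). The glucose transporter SLC2A1 fell by 0.17 (SE 0.047). Adjusted p for TFRC, SLC38A5, MFSD2A, SLC16A1, LRP1, ABCG2 and SLC2A1 ran from 1.11e-22 to 0.00269 (edgeR).

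Of 26 endothelial identity and Notch, Wnt and angiopoietin genes tested 2 rose and 9 fell, with a median of -0.16. The transcription factor KLF2, known as a keeper of the quiescent endothelial state, stood at 237, 173 and 166 CPM in Control and 50.9, 50.1 and 59.4 CPM in IL1b (-1.84, SE 0.20). KLF4 stood at 149.6, 99.5 and 101.4 and 46.4, 48.4 and 53.5 CPM (-1.24, SE 0.21). Control library 1 was the highest for both, and even the lowest Control library lay above all IL1b libraries. The Notch ligand DLL4 fell from 8.63, 9.88 and 7.16 to 2.28, 2.76 and 3.63 CPM (-1.57, SE 0.18), and TIE1 (-0.66) and NOTCH4 (-0.50) fell less. ETS1, an endothelial ETS factor, rose from 118, 122 and 114 to 200.4, 204 and 203 CPM (0.78, SE 0.052). ERG (0.01), GATA2 (0.07), TAL1 (0.02) and NOTCH1 (-0.01) did not pass. Adjusted p for KLF2, KLF4, DLL4, TIE1, NOTCH4 and ETS1 ran from 7.87e-15 to 5.18e-04 (edgeR).

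Among the deepest falls were short-lived transcription factors and other genes that respond to cyclic AMP. Of 26 immediate early and CREB target genes tested 4 rose and 14 fell, 8 of them by more than 1, with a median of -0.78. The orphan nuclear receptor NR4A1 (ENSG00000123358, chr12:52022832-52059507) stood at 196, 186 and 179 CPM in Control and 17.4, 18.4 and 16.1 CPM in IL1b. NR4A2 (ENSG00000153234, chr2:156324432-156342348) stood at 118, 104 and 107 and 11.1, 11.47 and 10.3 CPM. NR4A3 (ENSG00000119508, chr9:99821855-99866891) stood at 12.4, 12.2 and 12.2 and 1.37, 2.14 and 1.21 CPM. In all 3 members of the family no IL1b library came near the Control range, and the log2 fold changes were -3.44 (SE 0.094), -3.32 (SE 0.15) and -2.96 (SE 0.25). SIK1 (ENSG00000142178, chr21:43414483-43427189), a kinase that holds back the CREB coactivators and is itself a CREB target, went from 145, 139.5 and 140 to 22.8, 24.8 and 21.7 CPM (-2.62, SE 0.072). The counts of SIK1 are uncertain because of a near-identical copy, ENSG00000275993, which went from 168, 159 and 144 to 24.2, 24.7 and 26.3 CPM. The stress-response factor ATF3 (ENSG00000162772, chr1:212565334-212620777) went from 272, 189 and 220.1 to 49.2, 45.7 and 53.1 CPM (-2.20, SE 0.19), with Control libraries that spread widely but stayed above IL1b. The clock gene PER1 (-1.70) and RGS2 (-2.40) fell in the same list. Not every immediate early gene fell. JUN rose from 379.6, 221 and 337 to 647, 666 and 723 CPM (1.12, SE 0.20), and FOSL2 rose by 0.48. FOS stood at 469, 155 and 266 CPM in Control and 249, 282 and 286 CPM in IL1b and did not pass (-0.12, SE 0.42), its Control libraries differing among themselves more than the groups did. Adjusted p for NR4A1, NR4A2, NR4A3, SIK1, ATF3, PER1, RGS2, JUN and FOSL2 ran from 1.75e-25 to 7.81e-04 (edgeR).

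The letters TGACG, the core of the cyclic AMP response element bound by CREB, occurred on either strand in the RefSeq windows of 11 of the 14 genes with a window among the 15 largest falls (78.6%). They occurred in those of 16 of 21 genes of the immediate early and CREB target list. That list holds genes taken as CREB targets, so a high share there is partly built in. Other lists ranged from 9 of 14 cholesterol and glycosphingolipid genes and 11 of 19 NF-κB genes down to 1 of 11 coagulation genes. The share was 40.1% over the 11239 genes tested that have a window and 24.6% over all windows. Counted by window, since genes can have several, it was 14 of 25 for the falls, 18 of 44 for the immediate early list (40.9%) and 31.6% for genes tested. Stretches of NR4A3 and SIK1 are shown because they hold several matches close together. Each is 130 bases of GRCh38.p14 in the direction of the gene, with TGACG or its reverse complement CGTCA in capitals.
NR4A3: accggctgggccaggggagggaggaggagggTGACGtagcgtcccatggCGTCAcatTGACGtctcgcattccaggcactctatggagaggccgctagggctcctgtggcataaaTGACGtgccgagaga
SIK1: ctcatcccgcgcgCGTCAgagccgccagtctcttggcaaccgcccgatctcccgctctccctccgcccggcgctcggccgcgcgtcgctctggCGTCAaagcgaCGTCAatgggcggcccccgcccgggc
The first lies at chr9:99821745-99821874 on the plus strand, from 140 to 11 bases before the start, and the second at chr21:43427232-43427361 on the minus strand, from 230 to 101 bases before the start. NR4A3 held matches 109, 91, 83 and 25 bases before its start, and SIK1 217, 137 and 126 bases before its own. Among the falls, NR4A1, ATF3 and OLFML2A held none in any window, which says only that these letters are not in those windows. The full element TGACGTCA occurred for 2 of the 14 falls with a window, neither of them NR4A3 or SIK1, and for 3.76% of genes tested.

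MAP kinase feedback genes went both ways, 6 of 18 rising and 7 falling, with a median of -0.08. With total-count scaling 4 rose. DUSP5, a nuclear phosphatase of ERK, fell from 1153, 1023 and 1104 CPM to 336, 312 and 310.2 CPM (-1.78, SE 0.07). SPRY4, an inhibitor of receptor tyrosine kinase signalling, fell from 50.9, 42.7 and 47.2 to 12.0, 10.7 and 12.3 CPM (-2.01, SE 0.13). DUSP1, which acts on p38 and JNK, fell from 1622, 1285 and 1524 to 758, 774 and 761 CPM (-0.95, SE 0.12). All 3 were separated from Control. The p38 and JNK phosphatases DUSP16 (0.85) and DUSP10 (0.71) rose. Adjusted p for DUSP5, SPRY4, DUSP1, DUSP16 and DUSP10 ran from 7.22e-13 to 3.52e-04 (edgeR).

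The rest of the 15 largest falls were of mixed function. MAFF (ENSG00000185022, chr22:38200767-38216511), a small MAF factor, went from 236, 213 and 226 CPM to 50.3, 47.8 and 55.7 CPM, and HES1 (ENSG00000114315, chr3:194136145-194138732), a target of Notch, from 434, 382 and 394 to 91.1, 87.0 and 100.4 CPM. Both fell by similar amounts, -2.13 (SE 0.062) and -2.12 (SE 0.10). MIR23AHG (ENSG00000267519, chr19:13823880-13842928), the host RNA of the miR-23a cluster, went from 59.7, 30.4 and 36.0 to 8.87, 9.18 and 11.1 CPM (-2.11, SE 0.30), with Control library 1 high. VIPR1 (ENSG00000114812, chr3:42489299-42537573), a receptor of vasoactive intestinal peptide, went from 20.3, 20.1 and 17.9 to 4.06, 2.92 and 4.26 CPM (-2.37, SE 0.15). ALPL (ENSG00000162551, chr1:21509372-21578412), the tissue-nonspecific alkaline phosphatase that marks brain capillaries, went from 6.75, 7.63 and 8.15 to 1.17, 1.56 and 1.63 CPM (-2.37, SE 0.20). The groups were separate in all of these, as the rule that chose the 15 falls required. The set was completed by genes of the extracellular space or its receptors, namely OLFML2A (ENSG00000185585, chr9:124777158-124814885) (-2.24, SE 0.15), the collagen receptor subunit ITGA11 (ENSG00000137809, chr15:68296533-68432162) (-2.17, SE 0.15) and the protease HTRA3 (ENSG00000170801, chr4:8269765-8307111) (-2.11, SE 0.23). Adjusted p for MAFF, HES1, MIR23AHG, VIPR1, ALPL, OLFML2A, ITGA11 and HTRA3 ran from 9.25e-23 to 1.12e-04 (edgeR). MAFF, MIR23AHG, VIPR1 and NR4A1 share their locus with an opposite-strand gene.

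Metabolic lists moved by less. Among fuel switch and glycolysis genes 10 of 21 rose and 7 fell, with a median of 0.14. PDK4 (ENSG00000004799, chr7:95583499-95596491), the kinase that closes pyruvate dehydrogenase, fell from 82.3, 72.5 and 68.5 CPM to 10.9, 8.55 and 11.8 CPM (-2.83, SE 0.12). Hexokinase 2 (HK2), the entry to glycolysis, rose from 11.1, 11.1 and 11.3 to 38.5, 38.0 and 36.6 CPM (1.75, SE 0.10), and NAMPT, which makes NAD, from 200.4, 202 and 223 to 651, 649.7 and 630.0 CPM (1.63, SE 0.047). PFKFB3 (1.03) and LDHA (0.78), which raise glycolytic flux and make lactate, rose as well, and TXNIP (-0.51) and CPT1A (-0.38) fell. In cholesterol and glycosphingolipid synthesis 5 of 23 genes rose (3 with total-count scaling) and 7 fell, with a median of 0.01. Their shares, 21.7% and 30.4%, stand beside 24.0% and 22.6% of all genes tested. ST3GAL5 (ENSG00000115525, chr2:85837120-85905199), the synthase of ganglioside GM3, fell from 25.1, 22.3 and 20.8 to 1.93, 2.92 and 2.68 CPM (-3.18, SE 0.17), while UGCG and B4GALT5, which make its substrate, changed by 0.14, a call lost under total-count scaling, and 0.47. SREBF2 (-0.07), a regulator of the cholesterol pathway, did not pass. Adjusted p for PDK4, HK2, NAMPT, PFKFB3, LDHA, TXNIP, CPT1A, ST3GAL5 and B4GALT5 ran from 3.82e-25 to 9.15e-09 (edgeR). ST3GAL5 overlaps an antisense gene.

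Cell cycle genes mostly fell slightly or did not pass. Of 30 tested 16 fell and 5 rose, none by more than 1, with a median of -0.14. Over the other settings 12 to 19 fell, and the median was -0.23 with total-count scaling. The replication genes MCM2, MCM3, MCM4, MCM5, MCM6, MCM7 and PCNA did not pass. The largest change was that of CDKN1A, which encodes the cell cycle inhibitor p21 and so does not belong with the proliferation genes, from 449, 450.4 and 439 CPM to 239, 226 and 229 CPM (-0.95, SE 0.045). CDKN1B, another inhibitor, fell by 0.58 (SE 0.052). The mitotic genes CCNB2 (-0.46), BIRC5 (-0.40) and PLK1 (-0.29) fell, and the replication licensing gene CDC6 (0.31) and the cyclin CCND1 (0.48) rose. MKI67 stood at 746, 782 and 723 and 636, 693 and 673 CPM and did not pass (-0.17), although the groups did not overlap. Adjusted p for CDKN1A, CDKN1B, CCNB2, BIRC5, PLK1, CDC6 and CCND1 ran from 8.50e-19 to 1.03e-05 (edgeR).

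Of the 15 largest rises, 4 belong to none of these lists. HSD11B1 (ENSG00000117594, chr1:209686178-209734950), the enzyme that regenerates cortisol from cortisone, went from 1.82, 1.52 and 1.65 CPM to 42.7, 39.0 and 40.7 CPM (4.61, SE 0.17). DIO2 (ENSG00000211448, chr14:80197527-80387757), which activates thyroid hormone, went from 0.312, 0.366 and 0.386 to 4.46, 5.995 and 5.79 CPM (3.91, SE 0.41). Both are enzymes that make an active hormone inside the cell, and both groups were apart, as the choice of genes required. IL1RL1 (ENSG00000115602, chr2:102311502-102352037), or ST2, the receptor of interleukin 33 and a paralog of IL1R1, went from 0.987, 1.10 and 1.16 to 15.97, 15.3 and 14.3 CPM (3.81, SE 0.23). LINC02015 (ENSG00000231574, chr3:177816865-177899224), a long non-coding RNA, had 12 counts in the Control libraries together and 517 in the IL1b libraries, a ratio of 42.1 with a 95% counting interval of 23.9 to 81.9. Adjusted p for HSD11B1, DIO2, IL1RL1 and LINC02015 ran from 1.90e-25 to 1.67e-11 (edgeR). IL1RL1 overlaps IL18R1 on the same strand, and DIO2 and HSD11B1 overlap genes on the other strand.

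Set against TNF, IL-1β gave a different level for 41.4% of the genes tested (19.9% higher, 21.4% lower), with a median of 0.01. A difference of more than 1 on the log2 scale was called higher for 2.10% and lower for 4.97% of genes, and for 51.9% the 2 sets of libraries were fully apart. The question of this comparison is which parts of the response differ between the 2 cytokines. At the doses used NF-κB and interferon-response genes were all or nearly all lower after IL-1β than after TNF, 21 of 21 with a median of -0.996 and 35 of 36 with a median of -0.98. With total-count scaling the counts were 19 of 21 and 33 of 36. TNFAIP3, for example, stood at 192, 175 and 176 CPM in IL1b and 1216, 1603 and 1368 CPM in TNF (-2.95, SE 0.18). BIRC3 stood at 117, 118 and 111 and 634, 703 and 659 CPM (-2.53, SE 0.085). The groups lay far apart in both. Of 9 mononuclear-cell chemokines 7 were lower, with CCL5 at 12.0, 13.2 and 14.2 CPM in IL1b and 152, 163 and 149 CPM in TNF (-3.56, SE 0.079), and CXCL12 and CCL7 were higher. CXCL12 stood at 114, 107 and 109 CPM in IL1b, 74.8, 68.7 and 72.6 CPM in Control and 19.3, 18.0 and 17.7 CPM in TNF, so that TNF libraries lay below Control and IL1b libraries above it. CD74 (ENSG00000019582, chr5:150401637-150412929), the invariant chain of class II molecules, stood at 1.62, 1.72 and 0.842 CPM in IL1b and 36.4, 34.7 and 31.1 CPM in TNF (-4.60, SE 0.22), while Control stood at 1.35, 1.36 and 1.21 CPM, within the range of IL1b. The genes furthest below TNF also included NR4A2 (-4.58) and the CXCR3 ligands CXCL10 (ENSG00000169245, chr4:76021117-76023497) (-5.46) and CXCL11 (ENSG00000169248, chr4:76033682-76041415) (-4.98). CXCL11 stood at 3.19, 4.74 and 2.63 CPM in IL1b and 109, 114 and 109.9 CPM in TNF. OR2I1P (ENSG00000237988, chr6:29550407-29557721), an olfactory receptor gene that overlaps UBD on the other strand, stood at 0, 0.0521 and 0.158 CPM in IL1b and 4.58, 6.31 and 7.08 CPM in TNF, and which of the 2 genes its reads came from was not tested. Adjusted p in IL1b against TNF for TNFAIP3, BIRC3, CCL5, CXCL12, CD74, NR4A2, CXCL10, CXCL11 and OR2I1P ran from 8.15e-29 to 2.20e-07 (edgeR).

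**Figure D4:**
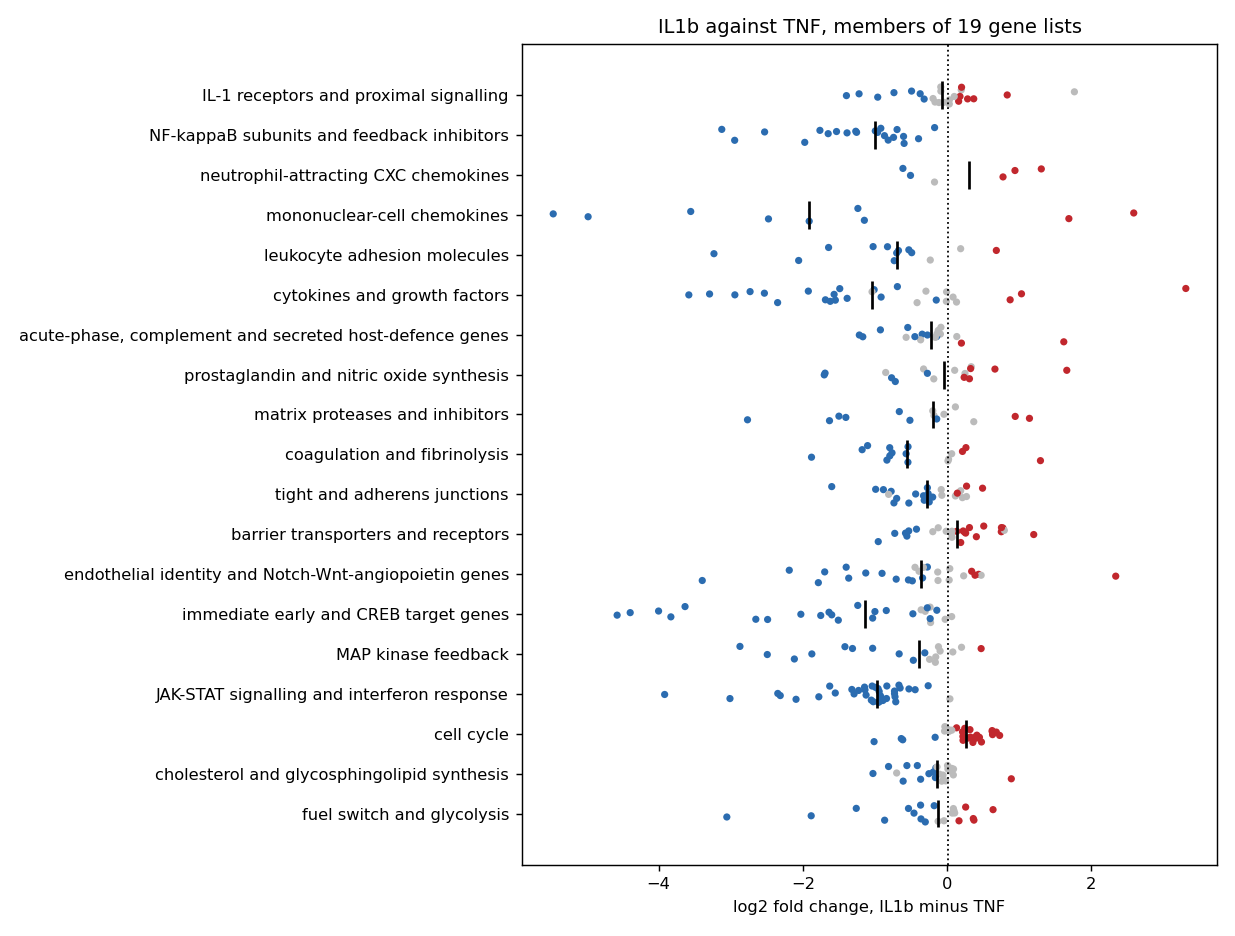
Log2 fold change between the stimuli (IL1b minus TNF, x axis) of every tested member of the 19 gene lists (y axis), red for members higher and blue for members lower in IL1b at an adjusted p under 0.05, grey for the rest, black bars for medians. All 21 NF-κB genes and 35 of 36 JAK-STAT and interferon genes lie to the left, whereas 3 of the 6 neutrophil chemokines and 21 of the 30 cell cycle genes are higher in IL1b.

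A smaller set was higher after IL-1β than after TNF. Among the neutrophil chemokines CXCL5 stood at 72.1, 66.5 and 60.1 CPM in IL1b and 26.0, 28.2 and 26.1 CPM in TNF (1.31, SE 0.088). CXCL1 stood at 1277, 1249 and 1247 and 584, 727 and 654 CPM (0.94, SE 0.10), and CXCL6 was higher by 0.78 (SE 0.057). CXCL8 (-0.51) and CXCL2 (-0.61) were lower, and CXCL3 (-0.17) did not pass, so the family did not move as one. With total-count scaling the 3 higher calls stayed at 3 and none of the 6 was called lower. CSF3 stood at 198, 194 and 200.4 CPM in IL1b and 16.1, 20.3 and 23.1 CPM in TNF (3.31, SE 0.086). PTGS2 stood at 31.0, 29.04 and 31.7 and 9.09, 10.5 and 9.35 CPM (1.66, SE 0.14). No library of the other group came near in either gene. The metallothionein MT1X (1.62), the transferrin receptor TFRC (0.75) and MFSD2A (0.77) were higher in IL1b as well. PTCH1 (ENSG00000185920, chr9:95442980-95517057), the receptor of hedgehog ligands, stood at 55.4, 54.3 and 58.4 CPM in IL1b, 53.5, 48.2 and 51.9 CPM in Control and 12.7, 14.6 and 11.1 CPM in TNF (2.13, SE 0.084), so that IL1b differed from TNF without differing detectably from Control. PODN (ENSG00000174348, chr1:53062052-53085502), a small leucine-rich proteoglycan, stood at 30.9, 29.2 and 32.2 and 6.54, 5.73 and 7.71 CPM (2.21, SE 0.10), and FAM83A (ENSG00000147689, chr8:123178960-123210079) was higher by 1.94 (SE 0.23). Adjusted p in IL1b against TNF for CXCL5, CXCL1, CXCL6, CXCL8, CXCL2, CSF3, PTGS2, MT1X, TFRC, MFSD2A, PTCH1, PODN and FAM83A ran from 2.54e-25 to 0.0344 (edgeR).

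The 15 largest rises, chosen against Control with the same IL1b libraries, lay on both sides of TNF. PTGS2, CSF3, IL1RL1, CXCL6, CXCL5, CSF2 and DIO2 were higher in IL1b, CX3CL1, CCL2, VCAM1, SAA1 and LINC02015 were lower, and HSD11B1, TNFAIP6 and SAA2 did not pass. HSD11B1, for example, stood at 42.7, 39.0 and 40.7 CPM in IL1b and 44.7, 48.7 and 47.4 CPM in TNF (-0.20, SE 0.085, edgeR adjusted p 0.0552). VCAM1 stood at 125, 126 and 114 and 1131, 1209 and 1095 CPM (-3.23, SE 0.19), the TNF libraries far above. Cell cycle genes were higher in IL1b than in TNF in 21 of 30 cases and lower in 4, with a median of 0.26, against 19.9% of all genes higher. TOP2A stood at 831, 844 and 794 CPM in IL1b and 515, 569 and 510.1 CPM in TNF (0.63, SE 0.044), and Control lay above both at 878, 912 and 889.5 CPM. In total-count scaling 76.1% of called genes were higher in IL1b, against 48.1% with the trimmed mean of M-values, and the median of all genes was 0.21. Small differences between the cytokines therefore depend on the scaling.

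The falls separated the stimuli along another line. Of the 15 largest falls, PDK4, HES1, NR4A1, NR4A2, NR4A3, SIK1, ATF3, MAFF, MIR23AHG and ITGA11 were lower in IL1b than in TNF, 1 (ST3GAL5) was higher, and VIPR1, ALPL, HTRA3 and OLFML2A did not pass. Over all genes tested 21.4% were lower in IL1b than in TNF and 19.9% higher. The falls were chosen against Control with the same IL1b libraries, a choice that favours low IL1b values. NR4A1 stood at 196, 186 and 179 CPM in Control, 227, 256 and 255 in TNF, 23.4, 27.7 and 28.1 in C5a and 17.4, 18.4 and 16.1 in IL1b. HES1 stood at 434, 382 and 394 CPM in Control, 421, 509.7 and 484 in TNF, 85.5, 81.0 and 104 in C5a and 91.1, 87.0 and 100.4 in IL1b. For both genes the IL1b and C5a libraries were low and the TNF libraries were at or above Control. ST3GAL5 stood at 25.1, 22.3 and 20.8 CPM in Control, 1.70, 1.53 and 0.850 in TNF, 14.0, 12.2 and 16.2 in C5a and 1.93, 2.92 and 2.68 in IL1b. Here the IL1b and TNF libraries were low and the C5a libraries came between them and Control, and for VIPR1, ALPL, OLFML2A and HTRA3 the C5a libraries likewise lay below Control and above both IL1b and TNF. In IL1b against TNF, the log2 fold change was -3.83 (SE 0.094) for NR4A1, -2.35 (SE 0.10) for HES1 and 0.89 (SE 0.25) for ST3GAL5, with adjusted p from 1.35e-17 to 0.00306 (edgeR).

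**Figure D5:**
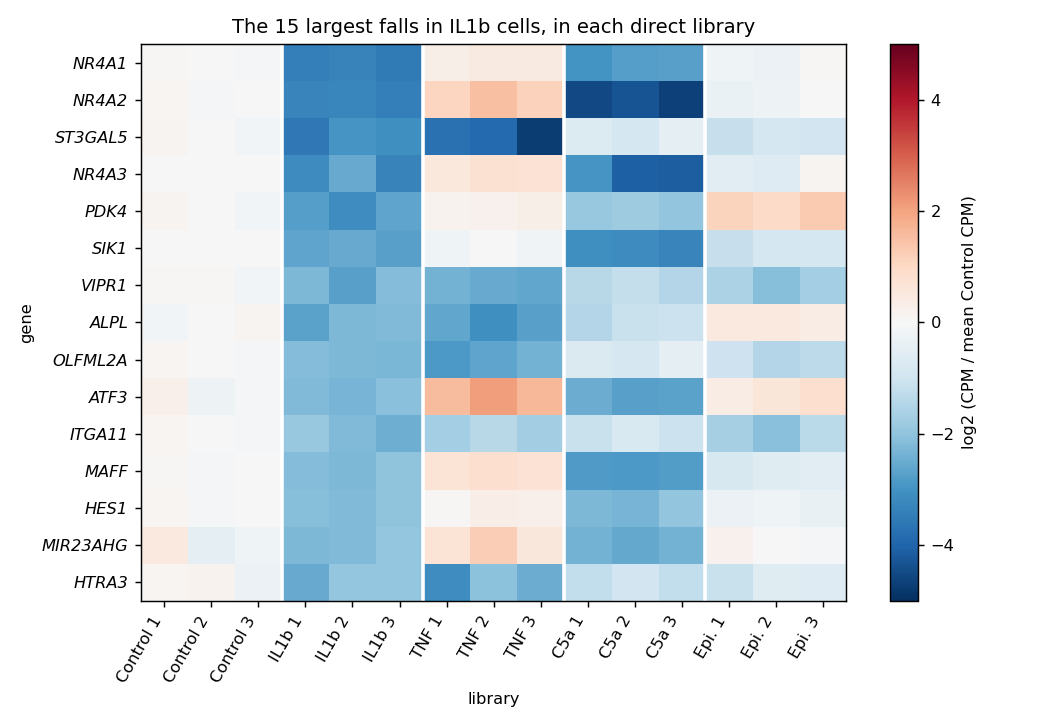
The 15 genes with the largest falls in IL1b (y axis) in each of the 15 directly stimulated libraries (x axis), coloured by the log2 of CPM over the mean Control CPM (Epi. is Epinephrine). NR4A1, NR4A2, NR4A3, SIK1, ATF3, MAFF, HES1 and MIR23AHG are blue in IL1b and C5a and near 0 or red in TNF, while ST3GAL5, VIPR1, ALPL, OLFML2A and HTRA3 are blue in IL1b and TNF and paler in C5a.

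Against C5a, 31.2% of the genes tested were called, 16.8% higher in IL1b and 14.4% lower, with a median of -0.01. Past 1 on the log2 scale were 2.29% higher and 1.39% lower, and for 45.9% of genes the 2 sets of libraries were fully apart. Total-count scaling turned this split, from 53.8% of called genes higher to 32% higher. Higher in IL1b were 19 of 21 NF-κB genes (median 1.20), 6 of 6 neutrophil chemokines (5.06), 8 of 9 mononuclear-cell chemokines (3.32), 16 of 18 acute-phase genes (2.23) and 34 of 36 JAK-STAT and interferon genes (0.66). Other inflammatory lists were less uniform, with 19 of 27 cytokines and growth factors (1.54), 11 of 16 prostaglandin and nitric oxide genes (0.36) and 6 of 13 adhesion molecules (0.16) higher, and 0, 1 and 2 lower. CXCL2, which did not pass against Control, was higher than in C5a by 2.66 (SE 0.25), and NFKBIZ, at 154, 158 and 158 CPM in IL1b and 39.4, 39.7 and 37.8 CPM in C5a, by 2.01 (SE 0.17). LIF, a cytokine of the interleukin 6 family, stood at 104, 100.3 and 100.8 CPM in IL1b, 68.7, 56.6 and 60.7 CPM in Control and 6.88, 8.93 and 7.54 CPM in C5a (3.71, SE 0.14). In CXCL2, NFKBIZ and LIF the C5a libraries lay far below Control, and the IL1b libraries did not. All 15 of the largest rises were higher in IL1b than in C5a, the smallest difference being 3.17 for DIO2, a choice of genes that rests on the same IL1b libraries. TNFAIP6, CSF3, CXCL6, PTGS2 and SAA2 differed most. CSF3 stood at 198, 194 and 200.4 CPM in IL1b and 0.407, 0.418 and 0.347 CPM in C5a (8.96, SE 0.34). SAA2 stood at 32.5, 31.6 and 31.6 and 0.306, 0.209 and 0.794 CPM (6.16, SE 0.36). The log2 fold change of SAA2 was 5.83 without C5a replicate 2 and 6.91 without C5a replicate 3. Adjusted p in IL1b against C5a for CXCL2, NFKBIZ, LIF, CSF3, SAA2 and DIO2 ran from 1.21e-30 to 7.35e-06 (edgeR).

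Among the labile genes the differences between IL1b and C5a were small beside their distance from Control. NR4A3 stood at 1.37, 2.14 and 1.21 CPM in IL1b and 1.58, 0.731 and 0.695 CPM in C5a (0.65, SE 0.35), ATF3 at 49.2, 45.7 and 53.1 and 41.0, 34.4 and 35.3 CPM (0.42, SE 0.21) and HES1 at 91.1, 87.0 and 100.4 and 85.5, 81.0 and 104 CPM (0.04, SE 0.10). None of the 3 passed the test, with adjusted p from 0.164 to 0.806 (edgeR), which does not show that they were equal. SIK1 (0.55), MAFF (0.69) and NR4A2 (1.17) were somewhat higher in IL1b than in C5a, and NR4A1 (-0.61) and PDK4 (-0.94) lower. The genes lowest in IL1b relative to C5a were ST3GAL5 (-2.49, SE 0.17), PRSS35 (ENSG00000146250, chr6:83512538-83525704) (-2.05, SE 0.24), OLFML2A (-1.58, SE 0.15), FAIM2 (ENSG00000135472, chr12:49866896-49904217) (-1.51, SE 0.19) and WNT9A (ENSG00000143816, chr1:227918656-227947898) (-1.47, SE 0.20). FAIM2, an inhibitor of Fas-induced cell death, stood at 7.64, 8.57 and 7.44 CPM in Control, 7.18, 6.27 and 7.35 in C5a, 2.23, 2.24 and 2.84 in IL1b and 0.196, 0.684 and 0.340 in TNF, so IL1b came between C5a and TNF. Of 30 cell cycle genes 15 were lower in IL1b than in C5a and 0 higher, with a median of -0.16, and 23 were lower with total-count scaling. Adjusted p in IL1b against C5a for SIK1, MAFF, NR4A2, NR4A1, PDK4, ST3GAL5, PRSS35, OLFML2A, FAIM2 and WNT9A ran from 6.43e-15 to 0.00107 (edgeR).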

How the data were processed

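RNA was sequenced from hCMEC/D3 cells in 30 libraries, 3 per group. The authors deposited 1 table of raw read counts per gene, not normalized. The submitters' processing notes name hg38, FastQC, STAR, DESeq2 and R 4.4.1 with no order or role. The counting tool, the annotation and the use of strand are not given in the sources used here. Per the labels' protocols, libraries were made with a NEBNext Ultra kit from 1 ng of total RNA.

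Of 63147 lines, 4 without a gene ID (0.000789% to 0.00164% of counts) and 2 genes whose lines hold no counts (TTN, ANK2) were left out, and 3 IDs repeated with identical counts were kept once, leaving 63138 genes. The 15 directly stimulated libraries of 5 groups were fitted together with edgeR 4.0.16 in R 4.3.3, with its filter on low counts (15908 genes kept), trimmed mean of M-values scaling and quasi-likelihood tests with Benjamini-Hochberg adjustment over all genes kept. IL1b was contrasted with Control, TNF and C5a. Scaling factors were 1.045 to 1.056 in Control, 0.991 to 0.996 in IL1b, 0.8605 to 0.879 in TNF and 1.053 to 1.061 in C5a. The 6 libraries of IL1b and Control held 17274481 to 19922547 counts. For genes with few counts, ratios of summed counts are given with exact 95% intervals.

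The genes named first were the 15 largest rises and 15 largest falls against Control among called genes with a symbol whose groups did not overlap and whose higher group averaged 5 CPM or more, and 5 each way against TNF and C5a. Other genes come from 19 lists of pathway members and from lists of cell type markers. Some list members are not reported here. The members and lists were chosen with earlier results of these data known. Gene positions come from GENCODE 29, and promoter windows from RefSeq.

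Alternatives were other scaling (relative log expression, total counts), other filters, a replicate block, fits of all 30 libraries or of 2 groups, DESeq2 1.42.0 and leaving out each replicate. On simulated counts for 15518 genes with 196 changed in IL1b only, 81.6% of the changed genes were called, with 9 false calls. In the data 46.6% of genes were called against Control. The simulation therefore does not show how the scaling or the false calls behave with that many changes.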

Additional observations from a re-analysis of the deposited data

How the results depend on the processing

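No call of a named or listed gene against Control changed direction under the alternatives run. The same held for the genes named first against TNF and C5a. Other genes were not checked for direction. With total-count scaling some list medians against TNF changed sign, that of cholesterol and glycosphingolipid synthesis from -0.14 to 0.05. With libraries scaled by their total counts, genes higher in IL1b than in TNF numbered 6504, genes lower 2041 and genes higher by more than 1 on the log2 scale 628, and against C5a 1743 were higher and 3712 lower. The scaling factors of the TNF libraries lay furthest from 1. With a mean count of at least 50, genes past 1 on the log2 scale numbered 257 higher and 222 lower against Control, 110 and 462 against TNF, and 218 and 61 against C5a, as fewer genes were tested. The same number of calls is not the same genes: of the 7419 calls against Control, 6514 were shared with total-count scaling and 7274 with DESeq2, which made 7318 calls.

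Leaving out 1 library gave 6529 to 6804 calls against Control (3390 to 3661 higher, 2985 to 3282 lower), 5852 to 5964 against TNF and 4123 to 4311 against C5a. Of the results for single genes, total-count scaling left 385 on the same side of the threshold, and 18 lost and 24 gained a call. Deviations of same-numbered libraries of IL1b and Control had correlations of -0.0334, -0.00164 and -0.147. Those of pairs with unlike numbers ran from -0.0735 to 0.0948. Each deviation is taken from a mean of only 3 libraries, so these values cannot exclude a pairing by number. With the replicate number as a block there were 7351 calls against Control, 6533 against TNF and 4900 against C5a, and 3 results lost and 1 gained a call. Depth limits CCL7, MMP12, SELE, TNFAIP6, TNIP3, NOS3 and LINC02015, whose ratios have wide intervals.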

Other observations

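Some genes outside the lists, picked after their values were seen, are given as values. IL7R, a receptor of interleukin 7 and TSLP, went from 3.74, 4.13 and 3.69 CPM in the Control libraries to 32.2, 34.5 and 31.1 CPM in the IL1b libraries (3.08, SE 0.12). ICOSLG, a ligand that costimulates T cells, went from 0.935, 0.627 and 0.661 to 7.05, 7.25 and 7.74 CPM (3.29, SE 0.27). SERPINE2, a secreted protease inhibitor, went from 15.1, 15.1 and 19.8 to 172, 162 and 166 CPM (3.33, SE 0.073). In each the groups were separate. The pattern receptors TLR2 (2.33) and NOD2 (2.95), the cytokine subunit EBI3 (2.47) and TNFSF13B, or BAFF (2.34), also rose on the log2 scale. Adjusted p for IL7R, ICOSLG, SERPINE2, TLR2, NOD2, EBI3 and TNFSF13B ran from 3.81e-29 to 6.06e-14 (edgeR).

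Other labile genes fell together with the NR4A family. ZFP36, which encodes the mRNA-destabilising protein tristetraprolin, stood at 189, 112 and 141 CPM in Control and 51.5, 52.3 and 54.3 CPM in IL1b (-1.49, SE 0.23), with 41.0, 39.8 and 38.8 CPM in C5a and 141, 266 and 182 CPM in TNF. ARRDC3, an arrestin-like adaptor, stood at 177, 136 and 149 CPM in Control and 41.6, 39.6 and 41.4 CPM in IL1b (-1.91, SE 0.12), with 30.7, 30.04 and 25.5 CPM in C5a and 200.5, 257 and 210.1 CPM in TNF. BHLHE40 (-1.72), KLF10 (-1.35), PPP1R15A (-1.38), CSRNP1 (-1.84) and TSC22D3 (-1.51), the last a target of glucocorticoids, fell as well. Adjusted p for ZFP36, ARRDC3, BHLHE40, KLF10, PPP1R15A, CSRNP1 and TSC22D3 ran from 1.92e-22 to 3.29e-04 (edgeR).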
